A study of Mus musculus with 24 samples.

Results

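H3K27ac, the acetylation of lysine 27 on histone H3 that marks active promoters and enhancers, was compared between mouse embryonic fibroblasts (MEF) of the WT and the KI genotype of Prrx1. The members were all 74243 summits of 2 ChIP-seq lists, 44918 of MEF WT and 29325 of MEF KI, out of 309261 H3K27ac summits in the 7 H3K27ac lists of the series. A summit is the single base at which a called peak was highest, and it carries the −log10 p of that peak against input DNA. A WT summit with a KI summit within 500 bp was called shared, and the others were called WT-only. KI summits were divided in the same way into shared and KI-only. A summit within 1 kb of the transcription start site (TSS) of a protein-coding transcript was called a promoter summit and any other a distal summit. Because the KI list was shorter and weaker, the main comparisons were also made between the KI list and the 29325 strongest WT summits, called lists of equal size here. Sharing by decile, distances between the lists and word positions are given for the whole lists unless said otherwise.

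Both cultures carry the strain label C57BL/6. The MEF came from embryos at embryonic days 10 to 13 of WT mice and of the 129S-Prrx1tm1Jfm/Mmmh mutant, in which lacZ is inserted in the Prrx1 homeodomain sequence. KI is read here as that mutant, because its label does not spell it out. All fibroblasts of the study were immortalised with the human papillomavirus genes E6 and E7 and grown in culture. The other lists used for reference were MEF SG, which are MEF with a CRISPR guide against Prrx1, MMTV-CAF WT and SG, which are cancer-associated fibroblasts labelled FVB/NJ, and wound-healing fibroblasts WT and SG, labelled C57BL/6. Each list came from 1 library. No test between WT and KI is therefore possible, and differences in genotype, embryo, dissection and culture cannot be told apart. Intervals given below are Wilson 95% intervals over summits and cover counting error only.

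Prrx1 is a paired-type homeodomain transcription factor of mesenchymal cells, and homeodomains commonly recognise sites with a TAAT core. Acetylated H3K27 is read by bromodomain proteins and found on the nucleosomes that flank open regulatory DNA, so that a summit usually falls on a nucleosome beside a factor's binding site. Stretches with many closely spaced H3K27ac peaks are known as super-enhancers and often lie at genes that set cell identity. H3K4me3, trimethylation of lysine 4 on histone H3, marks the start sites of active or poised genes. Hox genes encode homeodomain factors that record the position of a cell along the body and limb axes, and their order along the chromosome follows the order of the body regions in which they are used. Fibroblasts keep this positional record in culture.

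Below are 10 windows of 201 bases, which carry the contrast. They comprise 3 strong WT-only distal summits with no KI summit within 10 kb, 3 such KI-only summits with no WT summit within 10 kb, the strongest WT-only summit of the HoxB cluster, the strongest KI-only summit of the HoxD cluster and 2 strong shared distal summits. They were chosen after their values were seen. All are on the plus strand of mm9 with the summit at the middle base, and capitals mark a match on either strand to any of the words TAATTA (homeodomain), TGANTCA (AP-1), ACATTCC (TEAD), TGTGGTT (RUNX), GGGCGG (SP and KLF) and CCGGAAG (ETS). No word contains another.
WT-only, 8.59 kb beyond the 3′ end of Meis1, chr11:18771747-18771947: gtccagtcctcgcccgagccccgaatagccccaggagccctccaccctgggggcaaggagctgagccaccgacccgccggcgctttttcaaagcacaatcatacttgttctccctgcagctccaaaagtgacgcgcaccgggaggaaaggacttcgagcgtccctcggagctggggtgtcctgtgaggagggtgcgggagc
WT-only, intron of Hoxc4, chr15:102857968-102858168: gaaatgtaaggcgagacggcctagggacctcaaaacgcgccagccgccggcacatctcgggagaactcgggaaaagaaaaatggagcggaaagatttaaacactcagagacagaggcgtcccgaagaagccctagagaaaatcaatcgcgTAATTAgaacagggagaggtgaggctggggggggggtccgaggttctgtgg
WT-only, intron of Ptgs1, with a Prrx1 summit within 500 bp, chr2:36099115-36099315: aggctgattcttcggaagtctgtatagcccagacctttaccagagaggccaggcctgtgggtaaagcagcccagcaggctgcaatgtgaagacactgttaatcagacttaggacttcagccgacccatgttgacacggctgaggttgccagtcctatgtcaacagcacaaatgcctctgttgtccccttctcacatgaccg
WT-only, coding exon of Hoxb2, chr11:96213401-96213601: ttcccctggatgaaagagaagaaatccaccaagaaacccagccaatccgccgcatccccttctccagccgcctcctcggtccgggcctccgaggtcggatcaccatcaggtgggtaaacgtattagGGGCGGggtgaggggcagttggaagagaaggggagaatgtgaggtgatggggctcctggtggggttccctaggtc
KI-only, between genes, 29.0 kb from Gm6843, chr10:95106532-95106732: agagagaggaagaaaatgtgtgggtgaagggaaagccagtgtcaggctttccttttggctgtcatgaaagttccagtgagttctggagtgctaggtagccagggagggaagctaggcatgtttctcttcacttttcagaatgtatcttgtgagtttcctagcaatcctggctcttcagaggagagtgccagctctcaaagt
KI-only, between genes, 56.1 kb from Gm8765, chr13:50854790-50854990: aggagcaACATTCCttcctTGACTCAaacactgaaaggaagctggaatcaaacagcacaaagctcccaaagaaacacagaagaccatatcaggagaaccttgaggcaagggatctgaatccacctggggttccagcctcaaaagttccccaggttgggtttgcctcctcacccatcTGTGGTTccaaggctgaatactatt
KI-only, intron of Wnt5b, chr6:119463458-119463658: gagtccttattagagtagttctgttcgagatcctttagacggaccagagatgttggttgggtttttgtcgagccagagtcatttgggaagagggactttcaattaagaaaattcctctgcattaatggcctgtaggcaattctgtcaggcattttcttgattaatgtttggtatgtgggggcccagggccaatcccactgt
KI-only, 815 bp upstream of the Hoxd13 TSS, chr2:74505452-74505652: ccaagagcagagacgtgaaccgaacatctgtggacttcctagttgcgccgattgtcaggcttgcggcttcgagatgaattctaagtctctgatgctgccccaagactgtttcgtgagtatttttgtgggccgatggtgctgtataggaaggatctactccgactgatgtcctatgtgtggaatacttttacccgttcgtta
Shared, 3.42 kb from Rb1cc1, with a Prrx1 summit within 500 bp, chr1:6270047-6270247: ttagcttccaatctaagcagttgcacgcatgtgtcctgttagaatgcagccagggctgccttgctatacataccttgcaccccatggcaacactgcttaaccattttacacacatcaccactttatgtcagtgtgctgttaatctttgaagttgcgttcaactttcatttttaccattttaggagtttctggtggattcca
Shared, 208 kb upstream of Thbs1, chr2:117729200-117729400: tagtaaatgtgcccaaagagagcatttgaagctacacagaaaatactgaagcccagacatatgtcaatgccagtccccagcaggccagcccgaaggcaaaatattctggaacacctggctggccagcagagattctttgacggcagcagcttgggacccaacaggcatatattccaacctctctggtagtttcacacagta

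The summit beside Meis1 had a −log10 p of 90.2 and rank 349 in the WT list, and the nearest KI summit was 117 kb away. The strongest of the 3 KI-only windows, on chromosome 10, had a −log10 p of 40.7 and rank 197 in the KI list. The nearest WT summit was 60.7 kb away. The shared Rb1cc1 summit was called at the same base in both lists, with a −log10 p of 121 in WT and of 71.0 in KI, the highest value of the KI list. Of the 10 windows, 7 held no match to any word.

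At Prrx1 itself (ENSMUSG00000026586, chr1:165175247-165243841, minus strand), acetylation was called in both cultures. Counted over the gene and 10 kb to either side, there were 11 WT and 13 KI summits in lists of equal size. In the whole lists, its promoter held a WT summit with a −log10 p of 10.9 and no KI summit. This WT summit lay below 13.4, where the WT list was cut, so in lists of equal size neither culture had one. MEF SG had no promoter summit either. The widest H3K4me3 region at its TSS was 8628 bp in WT and 4558 bp in KI. The insertion lies within the coding sequence and not at the promoter, so these values do not check the genotype.

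The KI list stood apart from the other 6 in its strength and in where its strongest summits lay. Its median −log10 p was 11.9, against 18.5 in WT and 15.2 to 21.2 in the other 5 lists. Of the strongest decile of the KI list, 28.0% lay at promoters (26.4% to 29.6%), whereas in the other 6 lists, cut to equal size, 70.2% to 83.3% did. In the weakest decile the order was the opposite, with 36.7% at promoters in KI and 12.6% to 17.7% in the others. The strongest KI summits were thus mostly distal and the weakest KI summits lay at promoters more often than the weakest summits of the other lists. Sequencing depth and the share of reads in peaks are not given by summit lists, and their part in this was not tested.

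**Figure D1:**
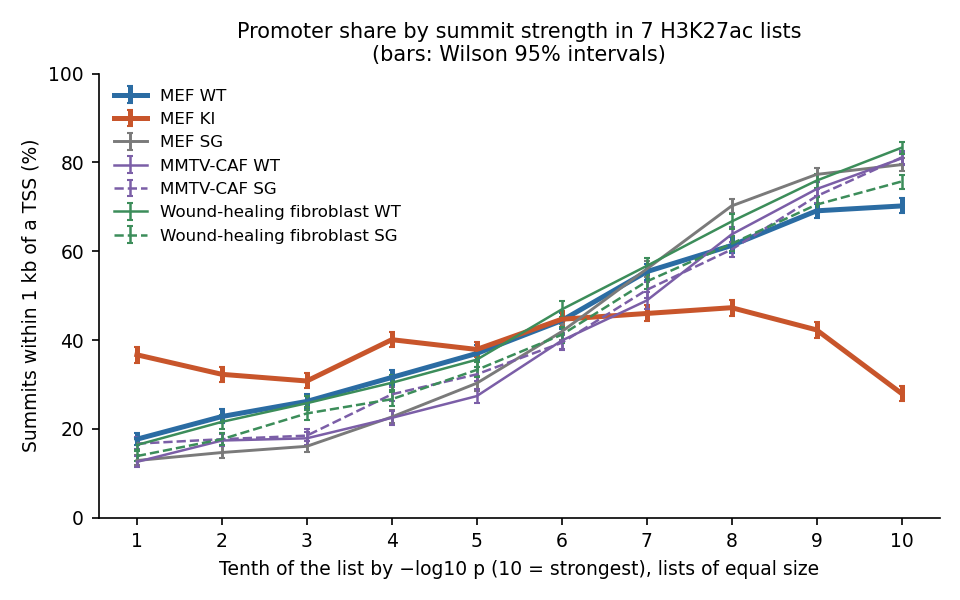
Share of summits within 1 kb of a TSS (%) in each decile of 7 H3K27ac lists of equal size, from the weakest (1) to the strongest (10) by −log10 p; bars are Wilson 95% intervals. In MEF KI the share stayed between 28.0% and 47.3%, and in MEF WT it climbed from 17.7% to 70.2%.

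WT-only and KI-only summits were mostly distal, and shared summits were divided almost evenly between promoters and distal sites. In the whole lists, 21.1% of the 25011 WT-only summits (20.6% to 21.6%), 46.9% of the 19907 shared WT summits (46.3% to 47.6%) and 18.1% of the 8952 KI-only summits (17.3% to 18.9%) lay at promoters. In lists of equal size, the 12187 WT-only summits had 31.1% at promoters (30.3% to 31.9%) and the 11456 KI-only summits 16.3% (15.6% to 17.0%). Cutting the WT list thus raised the promoter share of its WT-only summits, and the share stayed far below the 52.5% of shared summits. Distal summits of the 3 classes lay at like distances from genes, with a median distance to the nearest TSS of 28.9 kb for WT-only, 27.1 kb for shared and 25.4 kb for KI-only summits in the whole lists.

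**Figure D2:**
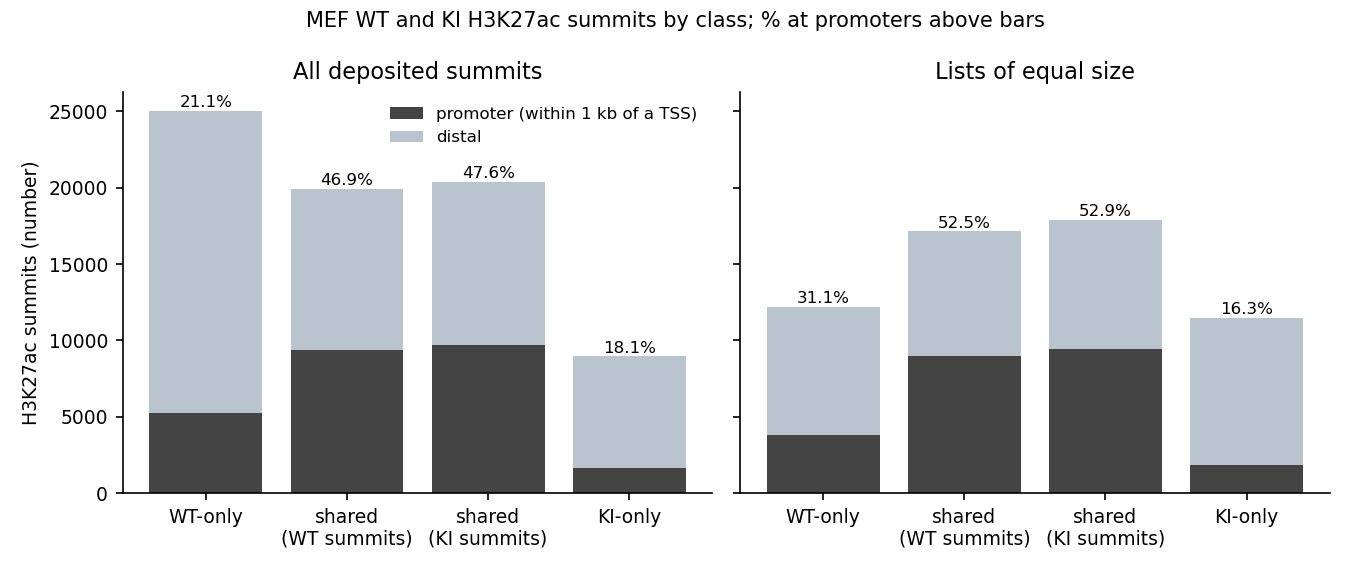
Number of H3K27ac summits in each class, divided into promoter (dark) and distal (light), for all summits (left) and for lists of equal size (right), with the promoter share above each bar. The promoter share of shared summits was 46.9% to 52.9% and that of WT-only and KI-only summits 16.3% to 31.1%.

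The sharing of WT summits followed their strength at promoters and distal sites alike. In the weakest decile of the WT list, 16.7% of promoter summits (13.3% to 20.7%) and 15.0% of distal summits (14.0% to 16.2%) had a KI summit. The intervals of both kinds overlapped up to the sixth decile, in which 40.2% and 41.5% were shared. In the strongest decile, 94.8% of promoter summits (94.0% to 95.5%) and 86.1% of distal summits (84.2% to 87.9%) were shared. Over the whole WT list, 63.9% of promoter and 34.9% of distal summits were shared, and promoters made up 8.68% of the weakest and 70.0% of the strongest decile.

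The sharing of KI summits depended on the site. KI promoter summits were shared at 81.4% to 88.7% in every decile. KI distal summits were shared at 47.1% in the weakest decile (44.9% to 49.4%) and at 77.1% in the strongest (75.3% to 78.9%). At no strength did the distal share reach that of promoters. Most KI-only promoter summits also had a WT summit close by, 72.5% of them between 500 bp and 1 kb away, against 29.9% of KI-only distal summits. With this wider distance, 96.1% of all KI promoter summits had a WT counterpart. KI-only summits lay a median 1.48 kb from the nearest WT summit and WT-only summits 11.5 kb from the nearest KI summit. In lists of equal size these distances were 2.48 kb and 11.8 kb.

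**Figure D3:**
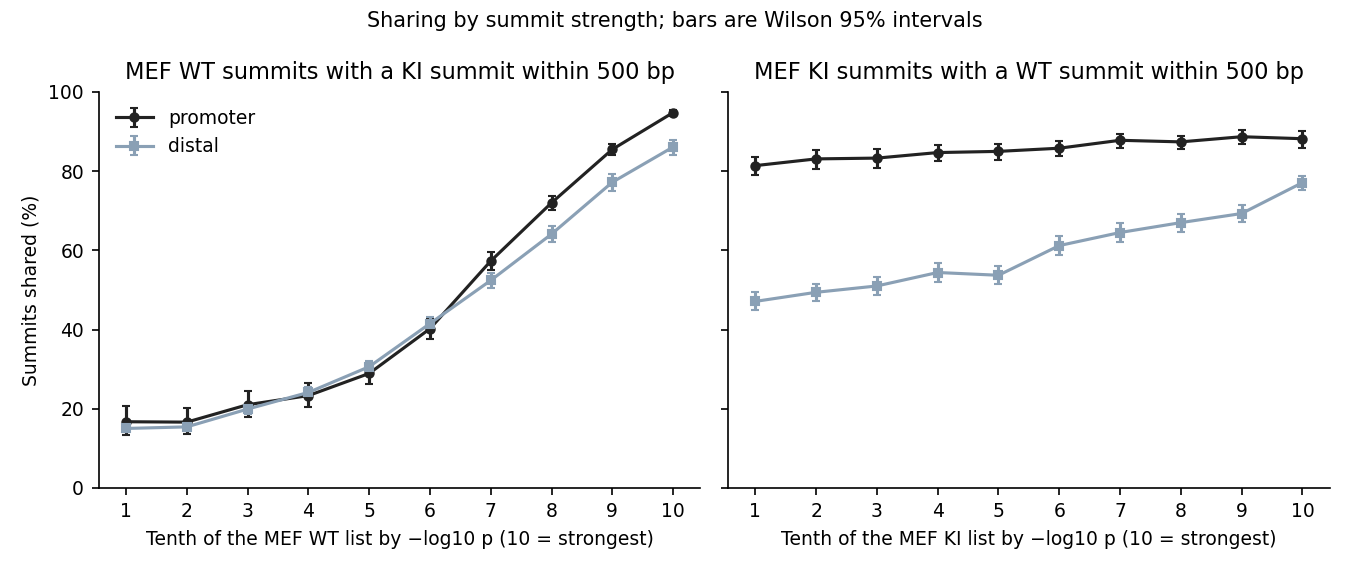
Share of WT summits with a KI summit within 500 bp (left) and of KI summits with a WT summit within 500 bp (right), by decile of −log10 p, for promoter (black) and distal (blue-grey) summits; bars are Wilson 95% intervals. WT promoter and distal summits run together in the weaker deciles, and KI promoter summits lie above KI distal summits in all 10.

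The sharing distance cut through a continuous range. WT summits 400 to 500 bp from a KI summit numbered 886, with a median −log10 p of 19.1, and those 500 to 600 bp away numbered 1076, with a median of 17.0. In both lists, 15716 summits had a partner within 100 bp. At the far end, 10366 WT-only distal summits, 52.5% of that class, had no KI summit within 10 kb, and 2301 KI-only distal summits, 31.4%, had no WT summit within 10 kb.

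WT-only and KI-only summits were looked up in the other cultures. With all lists of equal size, 57.8% of WT-only summits (56.9% to 58.7%) had a summit in MEF SG, 47.0% had one in MMTV-CAF WT, and 45.2% did in wound-healing fibroblasts WT. These shares lay below those of shared WT summits. Of the latter, 82.7% had a summit in MEF SG, 74.0% in MMTV-CAF WT and 77.8% in the wound-healing WT list. Shared WT summits were also stronger, with a median −log10 p of 38 beside 20.4, and the part of strength was not tested. Of KI-only summits, 20.6% (19.9% to 21.4%) had a summit in MEF SG, 24.2% had one in MMTV-CAF WT, and 27.1% did in wound-healing fibroblasts WT. KI-only summits overlapped MEF SG no more than fibroblasts of other origin, but they lack a WT summit by rule. MEF SG was the list most like WT, with 72.3% of WT summits present, beside 59.4% to 64.3% in the lists of other origin. The low SG share of this class is therefore no measure of likeness. Over all KI summits, 58.3% had a summit in MEF SG, beside 52.9% to 57.9% in the lists of other origin. Among WT-only promoter summits, 78.2% were present in MEF SG (76.9% to 79.5%). All of these shares start from the same MEF WT and KI lists.

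The coverage of the summits by H3K4me3 regions was compared at promoters and distal sites. Of WT-only promoter summits, 92.3% lay in a WT H3K4me3 region and 73.2% in a KI region. Shared promoter summits were covered at 97.6% and 94.5%, and KI-only promoter summits at 87.2% and 84.0%. At promoters, WT-only summits thus showed the widest gap between the cultures. Distal WT-only summits lay in WT regions at 12.9% and in KI regions at 5.63%, distal shared WT summits at 21.4% and 13.3%, and distal KI-only summits at 16.6% and 13.9%. At distal sites the gap of the shared class was at least as wide as that of the WT-only class in percentage points. Relative to the WT coverage, the gap of the WT-only class was the widest there too. The KI H3K4me3 list was also shorter, with 13125 regions against 16089 in WT.

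A Prrx1 ChIP-seq list of MEF WT, with 3048 summits, was set beside the classes. A Prrx1 summit lay within 500 bp of 2.10% of WT-only distal summits (1.91% to 2.31%), 2.20% of shared distal WT summits (1.93% to 2.49%) and 0.859% of KI-only distal summits (63 of 7331). The shares of WT-only and shared distal summits overlapped in their intervals. The KI-only class, which holds sites not called acetylated in WT, was lower, with an interval that overlapped neither. At promoters the share was 0.569%, 0.439% and 0.925%, with overlapping intervals. In the whole lists, 35.9% of the 646 WT distal summits with Prrx1 were shared (32.3% to 39.7%), beside 34.8% of those without (34.3% to 35.4%). In lists of equal size the order was the opposite, and 44.5% of the 436 WT distal summits with Prrx1 were shared (39.9% to 49.2%), beside 49.4% of those without (48.6% to 50.1%). Distal summits with Prrx1 were stronger, with a median −log10 p of 19.4 beside 14.2 in the whole lists. In lists of equal size the medians were 27.3 and 22.7. Sharing followed strength, and no comparison at like strength is given here.

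TAATTA and TGANTCA differed more with distance from the summit than between the classes. Within 100 bp of distal summits, TAATTA was found in 3.17% of WT-only (2.94% to 3.42%), 2.66% of shared (2.37% to 2.99%) and 2.85% of KI-only summits (2.49% to 3.26%), below the 5.57% to 6.14% of windows of the same length 2 kb to either side. The AP-1 word TGANTCA was found in 5.21%, 5.01% and 4.91% of them, against 6.31% to 6.54% at 2 kb. Both words were thus rarer around the summit than 2 kb from it. In rings of 50 bp around the summit, TGANTCA was most frequent 250 to 299 bp away, in 9.22% of WT-only, 1318 of 10562 shared and 9.74% of KI-only distal summits, and least frequent within 50 bp, in 2.50%, 2.17% and 2.22%. TAATTA showed a dip at the summit and no such crest, with 3.33%, 2.58% and 3.08% at 250 to 299 bp.

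Within 250 bp, TGANTCA was present at 22.0% of WT-only (21.4% to 22.5%), 25.1% of shared (24.3% to 26.0%) and 22.3% of KI-only distal summits (21.4% to 23.3%), 1.41, 1.64 and 1.41 times the share 2 kb away. AP-1 factors, dimers of Fos and Jun proteins, are general activators of fibroblast enhancers. Shared summits held the word most often, and the intervals of WT-only and KI-only summits overlapped. TAATTA within 250 bp was found at 10.7% of WT-only (10.2% to 11.1%), 8.44% of shared (7.92% to 8.98%) and 8.98% of KI-only distal summits (8.34% to 9.65%). Of the other words within 100 bp, GGGCGG was more frequent in shared summits (5.59%) than in WT-only (3.99%) or KI-only ones (4.23%). CCGGAAG was found in 1.51% of KI-only (1.26% to 1.82%) and 0.947% of WT-only summits (0.821% to 1.09%). In lists of equal size its intervals overlapped (1.38% and 1.06%), and among summits with none of the other list within 10 kb the order turned, with 22 of 2301 KI-only and 104 of 10366 WT-only summits. ACATTCC ran from 3.04% to 3.07% and TGTGGTT from 4.11% to 4.46% over the 3 classes. Mean GC content within 100 bp was 48.5%, 49.9% and 49.4% in the WT-only, shared and KI-only distal summits.

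Summits were next counted over each of 22238 protein-coding genes with 10 kb on each side, in lists of equal size. A gene was called to have fewer summits in KI when it had at least 3 fewer and at most 1 for every 2 in WT, and more by the mirror rule. By this rule of size, 640 genes (2.88%) had fewer and 526 (2.37%) had more in KI. Separately, 2076 genes (9.34% of the 22230 with an annotated coding TSS) had a promoter summit in the cut WT list and none in the whole KI list, and 158 (0.711%) had a promoter summit in KI and none in the whole WT list. These are counts of size with no test, and the balance of the first pair depended on the list sizes and on the flank. With all summits, 1866 genes had fewer and 232 more. Over the gene body alone the order turned, with 303 fewer and 323 more. Where summits of a list within 1 kb were counted once, 289 of the 640 and 185 of the 526 genes were still called.

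H3K4me3 was set beside these calls. A WT H3K4me3 region lay at the TSS of 86.4% of the genes with fewer summits, a KI region at 76.2%, and 65 of these genes had one in WT alone and 0 in KI alone. Of the genes with more summits, 20 had a region in WT alone and 17 in KI alone. Over the 21064 genes with neither call, the numbers were 1150 and 65. Genes with more acetylation summits in KI thus held a larger part of their H3K4me3 differences in the KI direction. Of the 158 genes with a promoter summit in KI only, 28 had H3K4me3 in KI alone and 4 in WT alone.

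**Figure D4:**
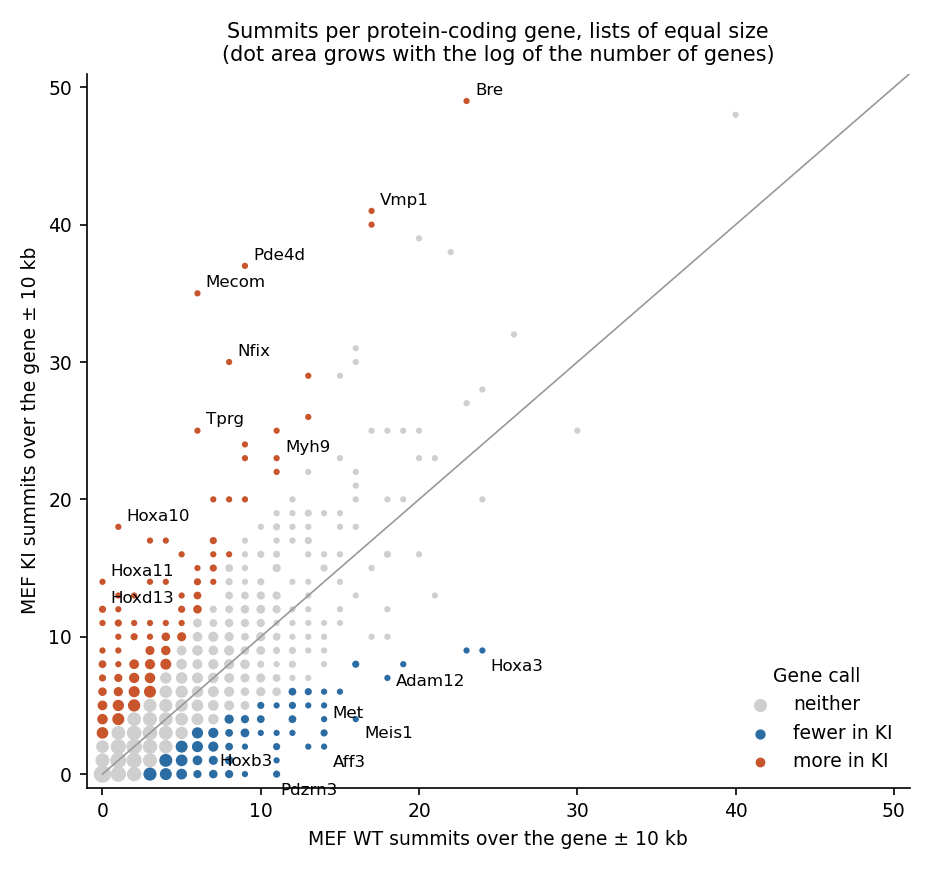
MEF WT (x) and MEF KI (y) summits over each protein-coding gene with 10 kb on each side, lists of equal size; each dot is a pair of counts, its area grows with the log of the number of genes, and colour gives the call. Gm20388, a read-through model of 4435 kb with 142 WT and 131 KI summits, is left out. Bre reached 49 KI summits against 23 in WT, and Pdzrn3 had 11 in WT and 0 in KI.

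The Hox clusters differed between the cultures by cluster and by position within it. In WT, acetylation lay mostly over the 3′ and middle genes of the 4 clusters, although Hoxb1 and Hoxd1, at the 3′ ends of HoxB and HoxD, had 0 summits. In KI it was nearly absent from HoxB and HoxC and lay mostly over the 5′ genes of HoxA and HoxD, which in embryos are used in the most posterior and distal regions. Of the 39 Hox genes, 16 were called fewer and 8 more. HoxB gave 5 of 10 fewer and 0 more, HoxC 4 of 9 fewer and 0 more, HoxA 4 fewer and 4 more of 11, and HoxD 3 fewer and 4 more of 9, beside the 2.88% and 2.37% of all genes. Neighbouring Hox genes lie within 10 kb of each other and so share summits.

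The HoxB cluster (chr11:96045630-96239570) held 25 summits in the whole WT list and 1 in KI, and none was shared. The WT summits reached a −log10 p of 95.3, in the coding exon of Hoxb2, and the only KI summit, within 1 kb of the Hoxb6 TSS, had 6.87. The other 5 lists held 21 to 43 summits there. KI thus stood alone among the 7 lists. H3K4me3 regions overlapping the cluster summed to 38795 bp in WT and 4603 bp in KI. By gene, in lists of equal size, Hoxb2 had 3 WT and 0 KI summits, Hoxb3 7 and 0, Hoxb4 5 and 0, Hoxb5 5 and 0, and Hoxb6 5 and 1.

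The HoxC cluster (chr15:102741534-102877274) held 8 WT summits and 1 KI summit, and none was shared. The other 5 lists held 11 to 27. The strongest WT summit, with a −log10 p of 100, lay 193 bp from the Hoxc6 TSS, and the KI summit, 748 bp from it and also at the Hoxc6 promoter, had 5.29. H3K4me3 regions summed to 34499 bp in WT, and the cluster overlapped no KI region. Hoxc4 had 3 WT and 0 KI summits, Hoxc9 4 and 0, and Hoxc6 and Hoxc8 4 and 1 each. This cluster was thus without H3K4me3 in the KI list as well as nearly without H3K27ac.

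The HoxA cluster (chr6:52095366-52220874) was acetylated in both cultures but over different genes. It held 31 WT and 30 KI summits, of which 6 in each list were shared. By gene, in lists of equal size, Hoxa3 had 24 WT and 9 KI summits, Hoxa4 8 and 1, and Hoxa5 8 and 4. The annotated Hoxa3 gene is 50 kb long and spans Hoxa4, Hoxa5 and Hoxa6, so its counts include theirs. With its flanks it took in all 24 WT summits of the cluster in lists of equal size. The 5′ genes were the opposite: Hoxa9 had 4 and 17, Hoxa10 1 and 18, Hoxa11 0 and 14, and Hoxa13 0 and 5. In the whole WT list these genes had 8, 4, 1 and 0 summits. The change of direction fell at Hoxa7, with 6 and 11, between the genes of both kinds. Hoxa13 (ENSMUSG00000038203), which patterns the distal limb and the genital tubercle, had 0 summits in the other 5 lists, cut to equal size, as well. Its H3K4me3 region was 635 bp wide in WT and 4890 bp in KI.

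The HoxD cluster (chr2:74496367-74613200) held 9 WT and 19 KI summits, and none was shared. By gene, in lists of equal size, Hoxd3 had 4 WT and 0 KI summits, Hoxd4 3 and 0, and Hoxd8 5 and 0. Hoxd10 had 2 and 7, Hoxd11 0 and 12, Hoxd12 0 and 11, and Hoxd13 0 and 12. Hoxd9, with 2 and 4 and no call, lay between the genes of both kinds. With the other 5 lists also cut to equal size, Hoxd12 and Hoxd13, which shape the digits, had 0 summits in each. Hoxd11 had 1 in wound-healing fibroblasts SG and 0 in the rest. The whole WT list also had 0 over these genes, and the other whole lists were not compared by gene. Over the cluster, MMTV-CAF SG had 0 summits in its cut list and 5 in its whole list. The TSS of Hoxd11, Hoxd12 and Hoxd13 had no H3K4me3 region in WT, and in KI regions 6024 bp, 5814 bp and 5814 bp wide. The strongest promoter summit of Hoxd13 in KI had a −log10 p of 25.0, and the matching window is shown above. The Prrx1 list, with 3048 summits, held 0 over the 4 clusters. Most genes held none: 1348 of the 21064 genes with neither call had a Prrx1 summit. So did 138 of the 640 genes with fewer and 82 of the 526 with more H3K27ac summits in KI. In so sparse a list, the 0 cannot tell the Hox clusters from other genes.

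**Figure D5:**
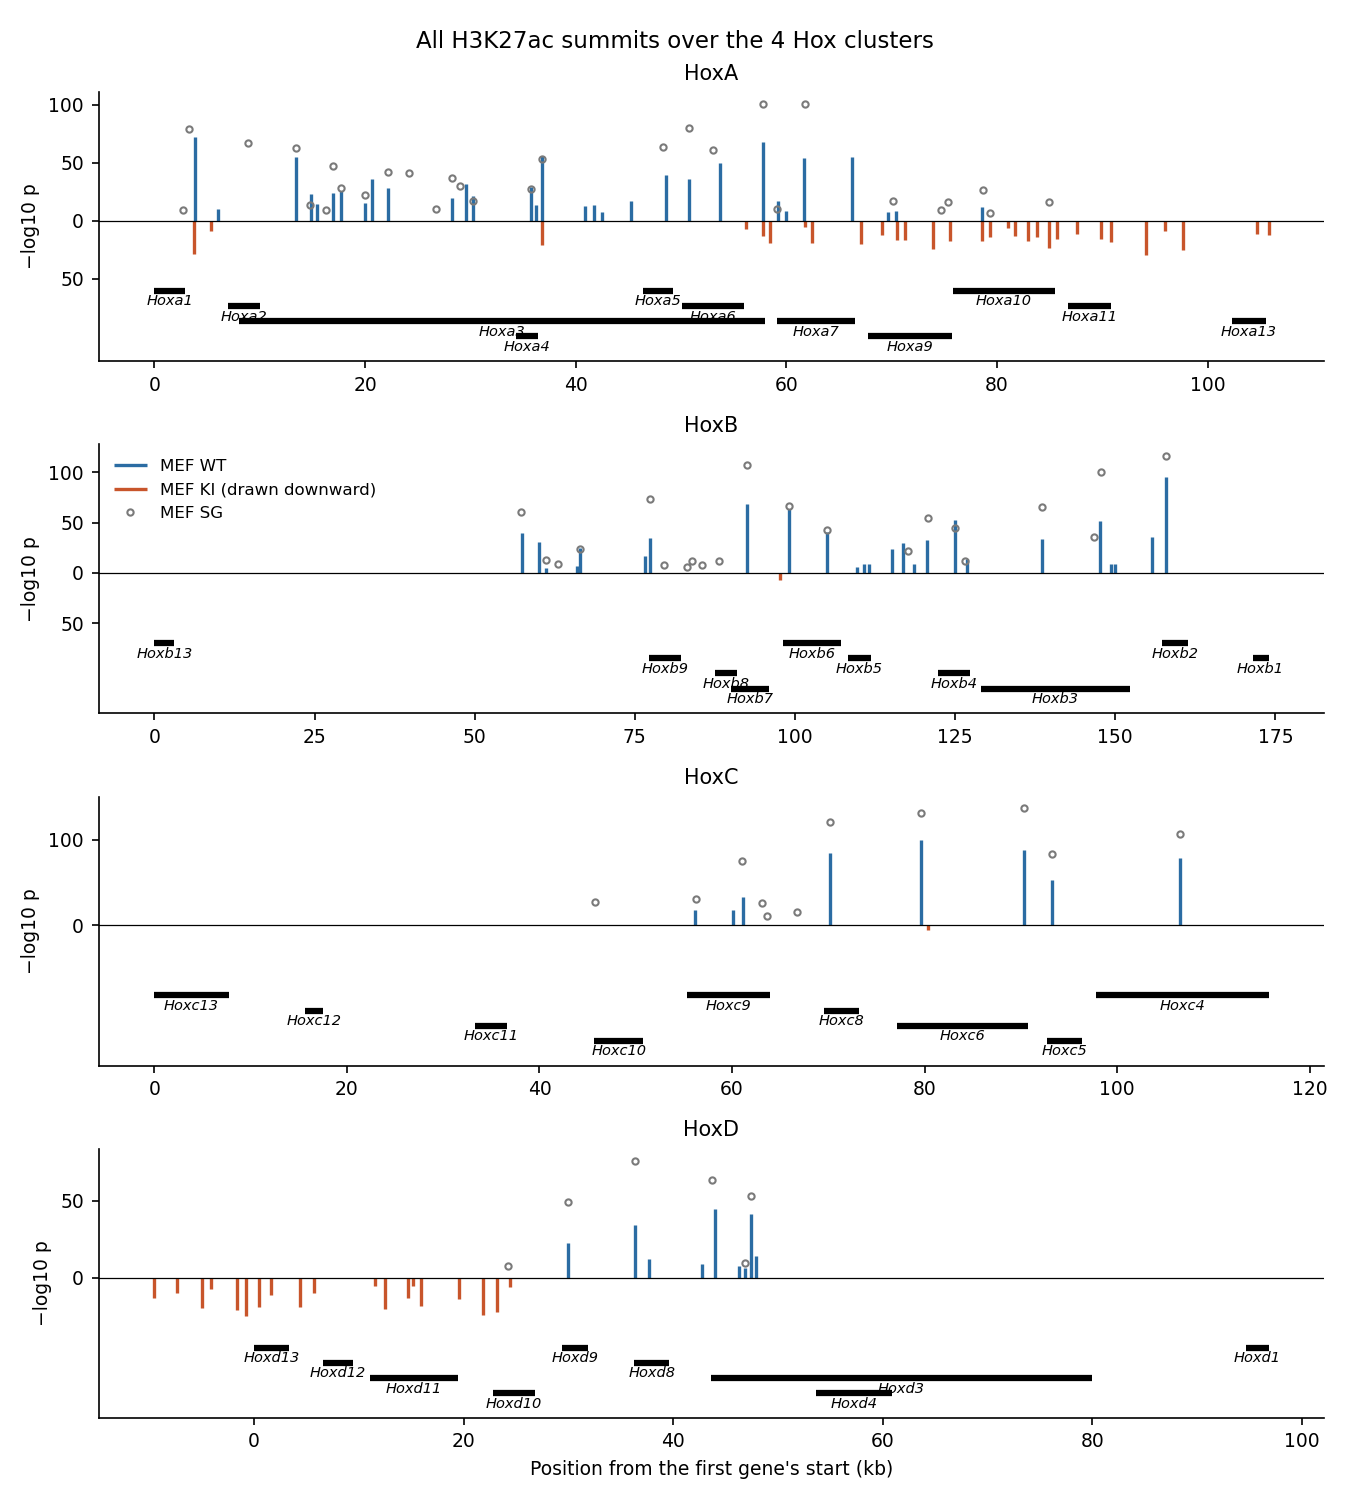
All H3K27ac summits over the HoxA, HoxB, HoxC and HoxD clusters with 10 kb on each side, as position from the start of the leftmost gene (kb) and −log10 p; WT is drawn upward, KI downward, SG as open circles, and black bars are the genes. Most KI summits of HoxA lie at Hoxa7 to Hoxa13 and all of HoxD at or beyond Hoxd10 to Hoxd13, and HoxB and HoxC hold 1 KI summit each.

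In lists of equal size, MEF SG had 23 summits in HoxA, 13 in HoxB, 10 in HoxC and 4 in HoxD, beside 24, 17, 8 and 5 in WT and 30, 1, 1 and 19 in KI. All 4 SG counts lay nearer to those of WT. Hoxd13 had 0 and Hoxb3 6 summits in SG. The body part from which each MEF culture was taken is not given in the labels, so that genotype and origin of the culture cannot be told apart here.

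Other regulators of position and identity differed in both directions. Of the 52 transcription factors of limb and regional identity examined, 4 had fewer (7.69%) and 6 more (11.5%) summits in KI, beside 2.88% and 2.37% of all genes. Meis1, a Hox cofactor of the proximal limb, had 16 WT and 4 KI summits, and its widest TSS H3K4me3 region measured 14328 bp in WT and 3542 bp in KI. Its promoter window was the exception, with a KI summit of −log10 p 14.7 and no WT summit. Pbx3, another Hox cofactor, had 5 and 0, and Pitx1, which specifies hindlimb identity, had 3 and 0. Irx5 had 3 and 0. The genes with more were Tbx15 (2 and 10), Foxc1 (2 and 8), Foxc2 (4 and 8), Pbx2 (4 and 8), Pax9 (0 and 5) and Tbx4 (0 and 3). Pitx1 and Tbx4, both of the hindlimb programme, thus went in opposite directions. With summits within 1 kb counted once, Tbx4, Pbx2 and Foxc2 were no longer called. Pax9, a regulator of the sclerotome and pharyngeal pouches, had a −log10 p of 23.7 at its promoter in KI, no promoter summit in WT, and H3K4me3 regions of 338 bp in WT and 4724 bp in KI.

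Several genes had summits in KI and in no other list once each was cut to its size. With lists of equal size, 23 genes had at least 3 summits in KI and 0 in the other 6 lists, and 3 genes, Nos1ap, Nrg3 and Tox, had this pattern for WT. The same count was 0 to 24 in the other 5 lists, so the number in KI was not outside the range. This pattern was looked for after the Hox values had been seen. The KI genes with 5 or more summits were Hoxd13 (12), Hoxd12 (11), Sall1 (9), Evx2 (8), Sox6 (8), Glipr1 (7), Pax9 (5) and Hoxa13 (5), and Evx2 lies beside Hoxd13 and shares its summits. In the whole WT list, Sox6 had 2 summits and Hecw1 had 1, and the other whole lists were not compared in this way. The other 15 had 3 or 4, among them the transcription factors Sox2, Bhlhe22 and Tbx4, the kinase Ripk4, the receptor Edar, Gal3st1, Psd4, Clmn and Hecw1. Of the 23, 8 had H3K4me3 at the TSS in KI and none in WT, among them Sall1 with a region of 2973 bp and Sox2 with 4342 bp. Over all genes, this held for 0 of 640 with fewer summits, 17 of 526 with more and 65 of 21064 with neither call. Because the 23 were picked for having no WT summit in lists of equal size, this is no independent check. Evx2, Hoxd12 and Hoxd13, which are among the 8, lie at 1 locus.

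The 8 candidate master factors examined in the study were acetylated in both cultures. Only Nfix, a nuclear factor I protein, was called, with 8 WT and 30 KI summits. With the whole WT list Nfix had 16 WT summits and was not called. In lists of equal size, MEF SG had 13 and the other 5 lists, MEF SG among them, had 10 to 33. KI thus lay within their range, and WT was the lowest. Tead1 had 14 and 8, Klf13 8 and 9, Junb 5 and 7, Fosl2 3 and 4, Klf4 3 and 1, and Cebpb 2 and 1. Junb had a WT promoter summit with a −log10 p of 67.6 and none in KI. The Nfix locus had rank 4 among the KI enhancer clusters, in which neighbouring summits are joined over short gaps and ranked by summed −log10 p, and its best WT counterpart ranked 1039.

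Most fibroblast markers held summits in both cultures. Of 13 fibroblast markers, Dcn, a small proteoglycan of collagen fibres, had 3 WT and 0 KI summits and Col1a2, a chain of type I collagen, 3 and 7, and the other 11 were not called, which is 7.69% in each direction beside 2.88% fewer and 2.37% more of all genes. Lum and Fap had 0 in both lists of equal size. All 13 together summed to 50 WT and 56 KI summits. In the whole lists, 11 of them held a promoter summit in WT and 7 in KI. H3K4me3 lay at the TSS of 12 in WT and 8 in KI. The marker lists of other cell types had summed counts of 9 WT and 23 KI summits for 14 epithelial genes, 6 and 10 for 12 endothelial, 9 and 5 for 11 blood and 3 and 8 for 12 neural genes. Of the KI epithelial sum, 13 summits lay over Trp63, which had 1 in WT, and 1 of the 14 epithelial promoters held a summit in each list. Called genes among these 4 lists, 1 or 0 in each direction in each list, were Trp63, Sox2 (0 and 4) and Pecam1 (0 and 5) with more and Flt1 (3 and 0) and Cd53 (3 and 0) with fewer. Both lists thus carried marks of fibroblasts, at fewer promoters in KI, and few of the other cell types. The part of other cells in the differences was not tested.

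Of 31 matrix genes, 7 had more summits in KI and 2 fewer, a share of 22.6% and 6.45% beside 2.37% and 2.88% of all genes. The median difference was 1 summit more in KI, and 0 over all genes. A promoter summit was present at 25 of them in WT and 18 in KI, with 7 in WT only and 0 in KI only. Col5a2, a chain of type V collagen, had 2 WT and 10 KI summits, and its H3K4me3 region was 4230 bp wide in WT and 8144 bp in KI. Loxl1 and Lox, enzymes that crosslink collagen and elastin, had 3 and 9, and 3 and 6. Fbln2 and Efemp2, of the fibulin family of elastic fibres, had 4 and 9, and 3 and 7. Fn1, fibronectin, had 2 and 5. Thbs2, a matricellular glycoprotein, had fewer (4 and 1). Where summits within 1 kb were counted once, Col5a2 (2 and 8), Loxl1 (3 and 7) and Fbln2 (4 and 8) were still called, and Col1a2 (3 and 4), Fn1, Lox, Efemp2, Dcn and Thbs2 were not. With the whole WT list, Col1a2 (6 and 7), Lox (5 and 6) and Fbln2 (7 and 9) were not called.

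Contractile and TGF-β genes, which mark the myofibroblast state, gave 7 calls, and most of them depended on the list sizes. Of 23 contractile genes, 1 had fewer (4.35%) and 2 more (8.70%), beside 2.88% and 2.37% of all genes: Myh9, non-muscle myosin heavy chain, had 11 WT and 23 KI summits, Cnn1, calponin, 2 and 5, and Lmod1, an actin nucleator, 6 and 3. The other 20 were not called. Of 26 TGF-β pathway genes, 0 had fewer and 4 (15.4%) had more, namely the ligand Tgfb2 (3 and 6), the secreted Tgfbi (1 and 4), the corepressor Tgif1 (3 and 7) and Cyr61 (2 and 6), a matricellular target. The other 22 were not called. The strong Tgif1 promoter summit of WT (−log10 p 97.8) lay 1.29 kb from the nearest KI summit, at a promoter that both lists called. With summits within 1 kb counted once, Cyr61 alone of these 7 genes was still called. With the whole WT list, Tgfb2 (6 and 6) and Tgfbi (4 and 4) did not differ in number, and Cnn1 (4 and 5), Myh9 (19 and 23) and Tgif1 (4 and 7) were not called.

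Among secreted proteases, growth factors and their receptors, the calls went both ways. Of 18 proteases and inhibitors, 3 had fewer (16.7%) and 1 more (5.56%), of 34 growth factor genes 2 (5.88%) and 3 (8.82%), and of 20 inflammatory genes 1 and 1 (5.00% each), beside 2.88% and 2.37% of all genes. Mmp2, a gelatinase, had 4 WT and 0 KI summits, Mmp14, its membrane-bound activator, 5 and 2, and Adam12, a metalloprotease of activated mesenchyme, 18 and 7. Adamts1 had 2 and 5. Met, the receptor of Hgf, had 14 and 5, and Hgf 0 and 3. Receptor and ligand thus went in opposite directions, though Hgf was not called with summits within 1 kb counted once. Wnt5a, a ligand of limb outgrowth, had 3 and 0, Dkk3 4 and 11 and Gli3, a Hedgehog effector of the limb bud, 2 and 5. In the whole WT list Dkk3 had 7 and Gli3 6 summits, so that Gli3 then had more in WT. Of the inflammatory genes, Ptges, prostaglandin E synthase, had 8 and 0, with 12 in MEF SG, and the chemokine Cxcl5 had 5 and 10.

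Other lineage and control lists gave 0 to 3 calls each, beside 2.88% fewer and 2.37% more of all genes. Sox6 (0 and 8) and Sox5 (2 and 5), cofactors of Sox9 in cartilage, were the 2 calls of 20 skeletal genes (10.0% more). Lpl, lipoprotein lipase, was the only call of 13 adipogenic genes (3 and 0, 7.69% fewer), Acta1, skeletal actin, that of 12 skeletal muscle genes (3 and 0, 8.33% fewer) and Foxc2 that of 10 mesenchymal transition factors (10.0% more). The YAP and TEAD targets Ankrd1 (2 and 7) and Amotl2 (6 and 15) were the 2 calls among 18 AP-1 and TEAD genes (11.1% more). Of 15 cell cycle genes, 1 had fewer (6.67%) and 2 more (13.3%). Ccnd1, cyclin D1, had 4 and 1, and Cdk6 (3 and 7) and Myc (2 and 5) had more. Of 52 ribosomal protein genes, all of whose promoters held a summit in both lists, 1 was called (1.92%), Rpl10a (1 and 4). Over the 442 genes of all lists, 34 had fewer (7.69%) and 43 more (9.73%) summits, beside 2.88% and 2.37% of all genes. With summits within 1 kb counted once, 26 and 23 of them were still called, as were 289 of 640 and 185 of 526 over all genes. With the whole WT list, all 34 and 24 of the 43 were still called. Among the genes lost there were Ankrd1, Cxcl5, Adamts1 and Nfix. Those lost when summits were counted once included Hoxa2, Hoxd4, Dkk3, Gli3, Sox5, Lpl, Acta1, Amotl2, Cdk6, Myc, Cd53 and Rpl10a.

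The largest differences over all genes lay mostly in long loci. The greatest surplus in KI was over Mecom, a zinc finger factor, with 6 WT and 35 KI summits, followed by Pde4d (9 and 37), Bre (23 and 49), Vmp1 (17 and 41) and Rad51l1 (17 and 40). The whole WT list held 9 summits over Mecom, 35 over Bre and 28 over Vmp1. The other 5 lists had 17 to 41 summits over Vmp1, 21 to 30 over Bre and 6 to 10 over Mecom. The greatest deficits, beside Hoxa3, were over Syn3 (23 and 9), Meis1 and Aff3 (14 and 2). Akap6 (14 and 3), Ank3 (19 and 8) and Pdzrn3 (11 and 0) followed. The Hoxa3 count includes the Hox genes within its span. The short genes 5730596B20Rik (3.35 kb, 11 and 0) and Hoxa10 (9.66 kb, 1 and 18), both in the HoxA cluster, were also among the 10 largest in their direction. Where summits within 1 kb were counted once, Mecom (6 and 26), Pde4d (8 and 28), Aff3 (10 and 2) and Pdzrn3 (9 and 0) were still called, and Bre, Vmp1 and Rad51l1 were not.

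The largest regional surplus in KI lay on chromosome 16. Between 24 and 26 Mb it held 120 KI and 42 WT summits, a surplus of 78, where the SD of the difference over 1224 bins of 2 Mb was 7.96. The bin holds Lpp, Tprg and Trp63. Tprg had 6 WT and 25 KI summits, and the KI cluster over it, with 32 summits in 66.9 kb, ranked second in KI and 4638 in WT. The other 5 lists held 43 to 87 summits in the bin, so KI was the highest and WT the lowest. Trp63, a p53-family factor of stratified epithelia, had 13 summits in KI, 11 in MMTV-CAF SG, 10 in wound-healing fibroblasts SG and 0 to 4 in the other 4 lists, and no promoter summit in WT or KI.

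With all lists cut to equal size, enhancer clusters were more crowded in KI than in WT. The cut takes out weaker WT summits, and clusters of the whole WT list are not given here. Of its 13518 clusters, 151 held 10 or more summits, with 6.81% of all summits, against 65 of 15202 in WT, with 2.62%. The other 5 lists had 76 to 227 such clusters. Of the top 500 WT clusters, 254 overlapped a top 500 KI cluster (50.8%, 46.4% to 55.2%), beside 65.0% for MEF SG and 47.8% to 57.0% for the 4 lists of other origin. Of the top 100 WT clusters, 36.0% overlapped a top 100 KI cluster (27.3% to 45.8%), beside 48.0% for MEF SG and 42.0% to 47.0% for those 4 lists. The KI share was thus within the range of the 4 lists in the top 500 and below it in the top 100, where the intervals overlapped. The first WT cluster, of 24 summits over Hoxa2 to Hoxa7, overlapped the sixth KI cluster, which ran from Hoxa3 to Hoxa13. The ninth WT cluster, over Hoxb2 to Hoxb7, had 1 KI summit and rank 12861 there. The first KI cluster, with 34 summits over Vmp1, ranked 24 in WT, and clusters at S100a4 (rank 10 in WT and 9 in KI) and near Mtap (rank 8 in both) stood alike in both.

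Among the promoters acetylated in WT only, Hoxb2 (−log10 p 95.3), Thbs1 (94.3), Tctex1d4 (91.4), Hoxc8 (84.8) and Gtpbp6 (84.4) had the strongest summits. At Hoxb2, Hoxc8 and Tctex1d4 the KI H3K4me3 list had no region, and at Thbs1 and Gtpbp6 it had regions of 5171 bp and 1225 bp. Thbs1 and Sparc (78.9), both secreted matricellular proteins, still had 6 and 7 KI summits within the gene and 10 kb of it, and the promoter window alone was without one. The strongest KI-only promoters, 2610203C20Rik (46.6), Spire2 (42.2) and H2-T24 (34.7), had 8, 4 and 3 WT summits in the same span. Akr1c14 (32.6) and Itih2 (27.3), with 3 KI and 0 WT summits each, and Hoxd13 were KI-only over the whole span.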

How the data were processed

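H3K27ac, H3K4me3 and Prrx1 ChIP-seq was done on fibroblast cultures, with 1 list for each library. Reads had been trimmed (Trimmomatic), mapped to mm9 (Bowtie) and used to call peaks over input (MACS2), and the authors deposited 1-bp summits with their −log10 p (H3K27ac and Prrx1) or regions with a fold ratio over input (H3K4me3). The deposited −log10 p starts at 5.0 for H3K27ac and at 3.00 for Prrx1. Read depth is not given by these lists, so its precision is unknown. Here, summits were intersected and counted in Python 3.11.15 (pandas 2.3.3, numpy 2.4.6, pysam 0.24.0, scipy 1.17.1; figures by matplotlib 3.10.9) over GENCODE vM1 protein-coding genes, and the counting was checked on simulated data. With 1 library a group there was no test. Named genes were the 8 candidate factors, Prrx1 among them, in each direction the 10 genes with the largest difference in summits and the 10 with the strongest promoter summit in 1 list only, up to 4 members of each gene list by size of difference, the strongest summits of each class and the 10 top clusters of each list. Further called list members, genes with summits in 1 list only and bins were chosen after their values were seen. The members and lists were chosen with earlier results of these data known. Other H3K4me3 and Prrx1 lists of the series were not used here. Alternatives changed list size, sharing distance, TSS window, gene flank, strength and motif window.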

Additional observations from a re-analysis of the deposited data

How the results depend on the processing

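Of 63 alternatives, 56 moved a value beyond its counting interval or a count by over 1.5 times, and 7 did not. These are single values with no sign of their own, and the order between some of them turned where said. With lists of equal size, sharing was 58.4% of WT and 60.9% of KI summits, the promoter share was 31.1% (WT-only), 52.5% (shared) and 16.3% (KI-only), WT H3K4me3 covered 41.6%, 63.7% and 26.0% and KI H3K4me3 29.5%, 57.3% and 23.7% of these classes, a Prrx1 summit lay at 2.15% of WT-only summits, and 274 genes had a promoter summit in KI only. At −log10 p of at least 10, sharing was 36.5% and 71.1%, the promoter shares were 30.9%, 49.7% and 19.3%, and 2294 genes had fewer and 105 more summits. Sharing was 40.2% and 61.6% within 250 bp, and 53.3% and 81.0% within 1 kb. The promoter shares were 17.5%, 41.1% and 11.4% with the TSS within 500 bp, 25.5%, 49.7% and 26.6% within 2 kb, and 24.0%, 49.8% and 21.4% with the TSS of all annotated genes. The order of WT-only and KI-only promoter shares thus turned within 2 kb. With Prrx1 summits of −log10 p of at least 10, the shares were 0.532%, 0.467% and 0.302%. Genes with fewer and more summits numbered 1866 and 232 with all summits, 303 and 323 over the gene body alone (an order opposite to the 640 and 526 reported), 1407 and 822 with 50 kb on each side, and 352 and 214 with summits within 1 kb counted once, an alternative chosen after seeing the data. TAATTA was found at 1.49%, 1.15% and 1.34% of WT-only, shared and KI-only distal summits within 50 bp and at 10.7%, 8.44% and 8.98% within 250 bp, and TGANTCA at 2.44%, 2.08% and 2.16%, and at 22.0%, 25.1% and 22.3%. The causes were not tested, beyond the longer windows and larger flanks that these alternatives use by construction. No paired analysis was possible because each group had 1 library, and no replicate could be left out. Read depth is unknown, so a summit missing from KI may lie below what its library could show.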
